A study of Homo sapiens with 3 samples.

Results

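This report describes where SOX4 summits lay in and around 10 genes of TGF-beta signalling and of epithelial or mesenchymal state in BT549 cells. The genes were the receptor genes TGFBR1 and TGFBR2, the signal transducer genes SMAD2, SMAD3 and SMAD4, the co-repressor genes SKI and SKIL, the transcription factor gene ZEB1, the filament gene VIM and the transcription factor gene GRHL2. They are 10 of 20037 protein-coding genes and were selected on their known roles together with summit positions from earlier results of these same lists. For each gene, every summit inside it or within 50 kb of its ends was taken, which gave 15 of the 7511 summits of all libraries. BT549 is a mesenchymal-like line of triple-negative breast cancer, long established in culture and used here at passage 5.

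Chromatin immunoprecipitation with sequencing (ChIP-seq) was run with an Abcam antibody against SOX4 on chromatin fixed with DSG and formaldehyde. The 3 libraries form 1 group, named replicates 1, 2 and 3. All carry the mark UT in their titles, which the labels do not explain, and neither another condition nor a control library (input or IgG) was analysed here. All comparisons are therefore between libraries, genes or positions, and nothing in the labels says whether the libraries came from separate cultures. Replicates 1, 2 and 3 had 1368, 1713 and 4430 summits, so replicate 3 supplied most of the positions. Sequencing depth is unknown, because the lists hold no read numbers. Each summit is 1 bp wide and carries a score from the authors, given as −log10 of either a p or a q value of MACS2, which serves here only to place a summit within its own list.

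TGF-beta ligands bind a type II receptor, encoded by TGFBR2, which recruits and phosphorylates the type I receptor, encoded by TGFBR1. The active receptor phosphorylates SMAD2 and SMAD3, which join SMAD4 and enter the nucleus to act on target genes, while SKI and SKIL bind SMAD proteins and repress those genes. SOX4 is a high-mobility-group transcription factor that TGF-beta induces in breast epithelial cells, where it takes part in the epithelial-mesenchymal transition (EMT). In that transition ZEB1 represses epithelial genes, VIM encodes the intermediate filament vimentin, and GRHL2 maintains the epithelial state.

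The sequences below show where summits fell inside RefSeq promoter windows of GRCh38.p14, which run from 250 bases before to 50 after a listed start of a gene. Summits of TGFBR1, SKIL and ZEB1 lay in such a window. The 250 bases upstream of SKIL, chr3:170357465-170357714 on the plus strand, hold the summits of 2 libraries, and capitals mark the 62 bases from one summit to the other, both included.
SKIL: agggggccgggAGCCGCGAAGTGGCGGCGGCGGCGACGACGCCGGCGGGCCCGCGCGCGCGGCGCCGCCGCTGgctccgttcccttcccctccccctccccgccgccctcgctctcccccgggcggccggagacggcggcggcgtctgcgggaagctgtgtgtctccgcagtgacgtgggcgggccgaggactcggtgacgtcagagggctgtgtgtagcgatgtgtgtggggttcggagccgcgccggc
For ZEB1 and TGFBR1, which each had a single summit of replicate 3 in a window, 29 bases centred on the summit are given, with the summit base in capitals. The ZEB1 stretch is chr10:31318714-31318742 and the TGFBR1 stretch chr9:99105665-99105693, both on the plus strand.
ZEB1: gcgtgggactgatgGtagccctgcctcca
TGFBR1: actggcagagccgtGgctgcccgccgccg
The 250 bases upstream of VIM, chr10:17227991-17228240 on the plus strand, held no summit, although 2 libraries had summits just downstream of the start. Capitals mark its 1 match to the GC box GGGCGG.
VIM: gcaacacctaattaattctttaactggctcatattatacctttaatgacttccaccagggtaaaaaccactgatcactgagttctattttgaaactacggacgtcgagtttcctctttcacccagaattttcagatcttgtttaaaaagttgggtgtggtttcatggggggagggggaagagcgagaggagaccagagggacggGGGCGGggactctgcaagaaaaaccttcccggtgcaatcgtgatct
The stretch upstream of SKIL has a GC content of 78.4% with 42 CpG pairs, and the one upstream of VIM 46.0% with 8. The full SKIL window has more G and C than 95.2% of the windows of coding genes, and the VIM window more than 15.0%. The highest such share among the members was 97.0%, for SMAD3, which had no summit within 50 kb. For the other members with a window, which each had a summit, it was 94.8% (SMAD2), 63.5% (SMAD4), 35.5% (ZEB1), 13.2% (TGFBR1) and 8.13% (TGFBR2). A relation between GC content and summits was not tested.

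Summits lay near 8 of the 10 genes, and in each of these 8 a summit fell inside the gene or within 5 kb of it. For all coding genes, a summit from at least 1 library lay inside or within 50 kb in 35% of cases, and inside or within 5 kb in 20.4%. Because the genes were listed with such results known, their share is a description and was not tested. The 2 genes without a summit were SMAD3 and SKI. Gene length bears on such counts: the 10 genes span 9.35 kb (VIM) to 211 kb (ZEB1), and 6 of them are longer than 65.1 kb. A summit lay within 5 kb of 30.1% of the coding genes of at least that span, and of 11.4% of those of up to 8.54 kb. The part of gene length in the members' count was not tested.

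**Figure D1:**
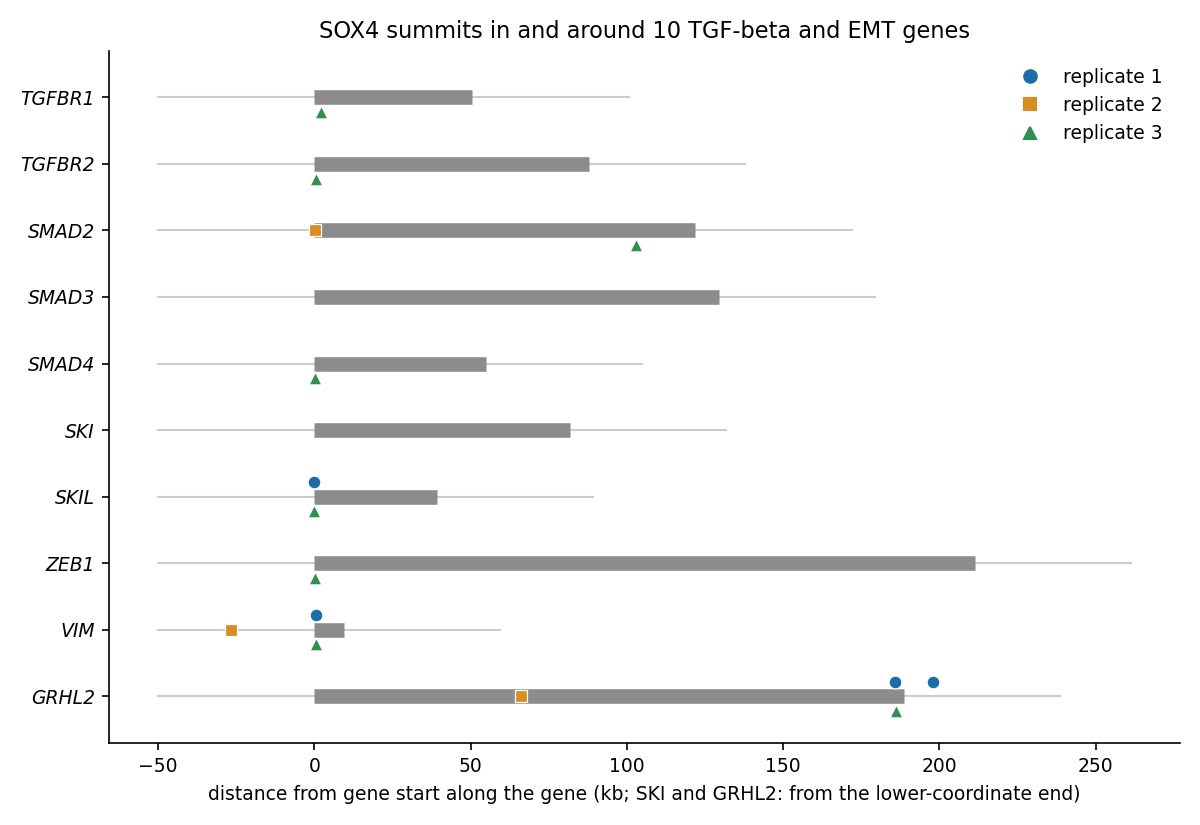
Positions of the 15 SOX4 summits along the 10 genes, with each gene as a thick bar from its start at 0 and the 50 kb on either side as a thin line (x axis in kb; SKI and GRHL2 run from their lower-coordinate end, as no strand was given for them). Blue circles are summits of replicate 1, orange squares of replicate 2 and green triangles of replicate 3. Most summits sit at the left end of the bars, those of GRHL2 lie far from it, and SMAD3 and SKI have none.

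The receptor genes had 1 summit each, both from replicate 3. In TGFBR1 (chromosome 9, 99103647 to 99154192), the summit at 99105679 scored 3.30, above 2.89% of the summits of its list, and so was among the weakest. It lay 2032 bp inside the outermost start of the gene and 104 bp past the nearest of its listed starts. The promoter window that holds it belongs to another listed start, farther into the gene. Relative to that start, the first base of the stretch printed above is at -149. In TGFBR2 (chromosome 3, 30606356 to 30694142), the summit at 30606841 scored 7.02, above 76.2% of its list, and lay 485 bp past the outermost start and 240 bp past the nearest listed one. The same position falls inside the neighbouring coding gene LOC105377015, 83 bp from its nearer end, so by position the summit belongs to both genes. Replicates 1 and 2 had no summit within 50 kb of either receptor gene, and the closest they came was 667 kb and 1116 kb for TGFBR1, and 6645 kb and 6482 kb for TGFBR2.

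The 3 SMAD genes differed in what they held. SMAD4, which encodes the partner of SMAD2 and SMAD3, had the highest-standing summit among the members. It lay in replicate 3 at chromosome 18, 51030376, 163 bp inside the gene from its start, with a score of 10.3 that ranked 296 of 4430 in the list. Neither of the other libraries had a summit within 1216 kb of it. SMAD2 (chromosome 18, 47808957 to 47930872, minus strand) had summits in 2 libraries that did not coincide. The replicate 2 summit at 47930534 lay 338 bp inside the start with a score of 3.40, above 5.20% of its list. The replicate 3 summit at 47827848 lay 102.7 kb away, 18.9 kb from the far end of the gene, and its score of 3.13 stood above 0.903% of its list. Both SMAD2 summits were thus near the bottom of their lists. SMAD3 (chromosome 15, 67065602 to 67195169) had none in the window. The nearest was a replicate 3 summit 59.7 kb outside the gene at 67254860 with a score of 6.34, while replicates 1 and 2 came no nearer than 709 kb and 11243 kb.

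The co-repressor genes SKI and SKIL, which are paralogs, stood apart from each other. SKIL (chromosome 3, 170357715 to 170396849) had summits just upstream of its start in replicate 1, at 170357476 with a score of 7.03, and in replicate 3, at 170357537 with a score of 5.53. They were 61 bp apart, the closest pair of libraries among the members, and lay 239 and 178 bp before the start, within the capitals of the sequence above. These scores stood above 61.3% and 49.0% of their lists, so both were of middle rank. Replicate 2 had nothing nearer than 391 kb. For SKI (chromosome 1, 2228319 to 2310213), the closest position was 344 kb outside the gene in replicate 1 and 130.3 kb outside it in both replicates 2 and 3.

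**Figure D2:**
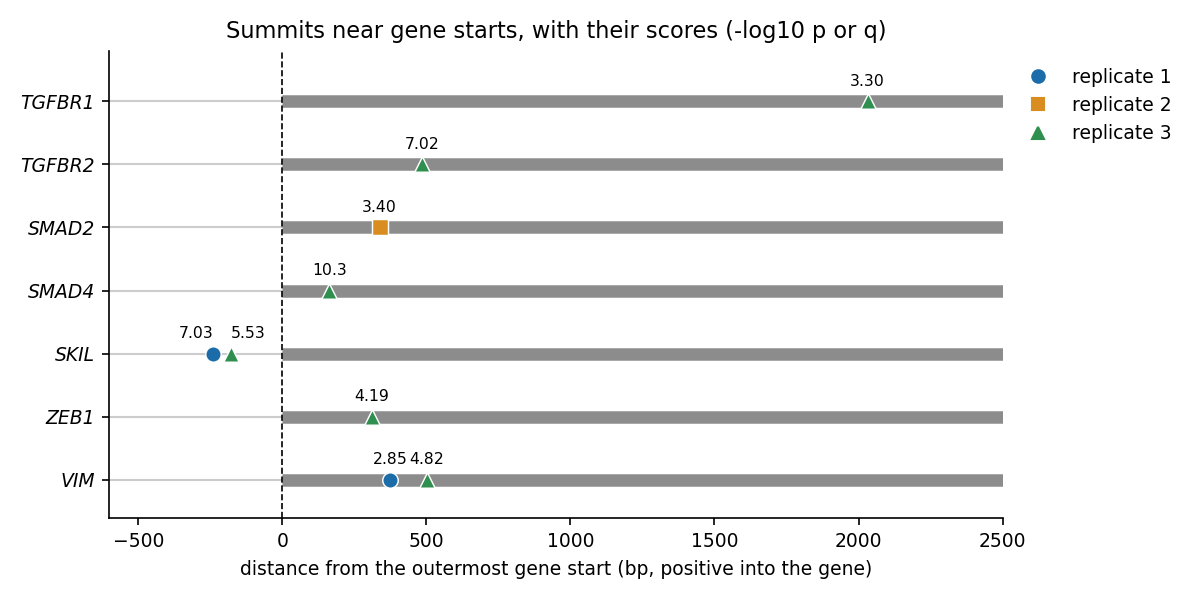
Summits within 2500 bp of the outermost start of the genes whose strand is known, on an axis in bp that is positive into the gene; numbers are the scores. The SKIL pair lies upstream of the start, the other summits downstream, and the VIM pair lies farther in than the SMAD4, SMAD2 and ZEB1 summits.

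ZEB1 (chromosome 10, 31318417 to 31529804), the repressor of epithelial genes, had 1 summit, in replicate 3 at 31318728. It scored 4.19, above 18.1% of the list. The summit lay 311 bp past the outermost start, 90 bp before another listed start of the gene, and inside the antisense RNA gene ZEB1-AS1, which overlaps this end. Replicates 1 and 2 came no nearer to the gene than 817 kb and 399 kb. A second replicate 3 summit lay past the far end at 74.2 kb, outside the window.

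VIM (chromosome 10, 17228241 to 17237593), whose product marks mesenchymal cells, had a summit in all 3 libraries within 50 kb, 2 of them at one site. Replicate 1 had it at 17228615 with a score of 2.85, and replicate 3 at 17228743 with a score of 4.82. They lay 374 and 502 bp inside the start, 128 bp apart, and within the overlapping antisense gene VIM-AS1. The replicate 1 summit was among the weakest of its list, above 0.658% of it, and that of replicate 3 stood above 35.2%. The replicate 2 summit was elsewhere, at 17201693, 26.5 kb upstream of VIM. That position is 21 bp from an end of TRDMT1, which encodes an RNA methyltransferase, and its score of 6.28 stood above 58.4% of its list.

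GRHL2 (chromosome 8, 101492439 to 101681200), the epithelial factor gene, carried the most summits, 4, and all 3 libraries had one inside it. Replicates 1 and 3 coincided near its upper-coordinate end, at 101678278 with a score of 3.88 and at 101678444 with a score of 6.66. These lay 2922 and 2756 bp from that end and 166 bp apart, and stood above 11.2% and 70.3% of their lists. Replicate 2 had its summit deep in the gene at 101558680, 66.2 kb from the lower-coordinate end, with a score of 4.34. A further replicate 1 summit at 101690403 scored 6.57 and lay 9.20 kb outside GRHL2, within the adjoining gene NCALD. GRHL2 is on chromosome 8, where the background is higher: a summit lay within 5 kb of 50.5% of its 715 coding genes, and a shared one within 5 kb of 17.9%. No strand was given for GRHL2 in the tables used, so which end is the start is not stated here. The part of the chromosome in the GRHL2 summits was not tested.

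Sharing was set at 200 bp: a summit with one from another library no farther away was called shared. By that measure SKIL, VIM and GRHL2 had a shared site within 5 kb, 3 of the 10 genes, against 3.47% of all coding genes. At 50 kb the count was the same 3, against 6.53%. In each of the 3 cases the libraries were replicates 1 and 3, and none of the 3 shared sites had a replicate 2 summit. Of the 15 member summits, 6 were shared (40.0%, exact Clopper-Pearson 95% interval 16.3 to 67.7%), against 28.1% of all 7156 summits on assembled chromosomes. The interval covers counting error only and is too narrow as well, since the 6 shared summits are 3 pairs of the same sites; it is no test of the difference. By library, 3 of 4 member summits of replicate 1 were shared, against 50.2% of the assembled summits of that list. For replicate 2 it was 0 of 3, against 41.0%, and for replicate 3 it was 3 of 8, against 16.9%.

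**Figure D3:**
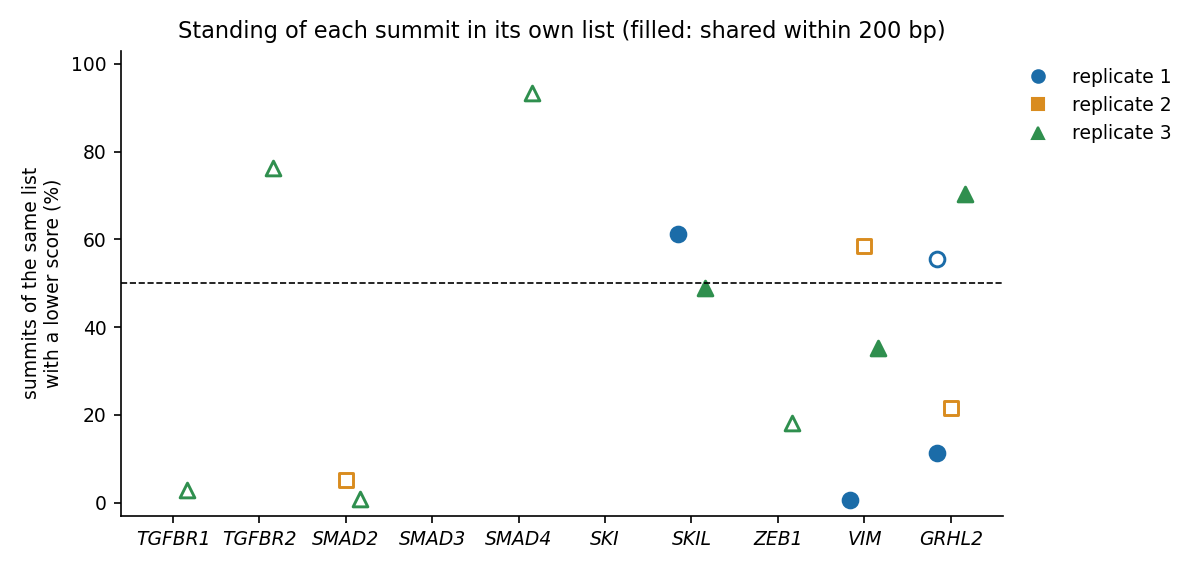
Share of the summits of the same list that scored lower (y axis, in percent) for each member summit, by gene; filled symbols are shared with another library within 200 bp, and the dashed line is the middle of a list. The SMAD4 summit of replicate 3, at 93.3%, stands highest and is unshared, while the shared VIM summit of replicate 1, at 0.658%, stands lowest.

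The member summits stood above 0.658% to 93.3% of their own lists. Of the 15, 6 stood at or above the middle of their own list and 1, that of SMAD4, in its top 10%, while 4 stood in the lowest 10%. By definition, the middle parts a whole list evenly, and 10% of its summits stand in each of these ends. The member summits of replicate 1 scored 2.85 to 7.03 (median 5.23), against a median of 6.12 over the list. Those of replicate 2 scored 3.40 to 6.28 (median 4.34, against 5.57). Those of replicate 3 scored 3.13 to 10.3 (median 5.17, against 5.58). In all 3 lists the members' median was thus below that of the whole list, and no test was made of it.

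Replicate 3, with the longest list, decided much of the count. It had a summit within 5 kb of 8 of the 10 genes, against 17.9% of all coding genes. Replicate 1 had one for 3 genes, SKIL, VIM and GRHL2, against 4.6%, and replicate 2 for 2 genes, SMAD2 and GRHL2, against 4.53%. TGFBR1, TGFBR2, SMAD4 and ZEB1 rested on replicate 3 alone, a pattern shown by 13.1% of all coding genes. Without replicate 3, 4 of the 10 genes had a summit within 5 kb (SMAD2, SKIL, VIM and GRHL2), against 7.32% of coding genes, and 0 had a shared site, against 1.32%. Without replicate 1 also, 0 had a shared site, against 1.85% of coding genes.

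**Figure D4:**
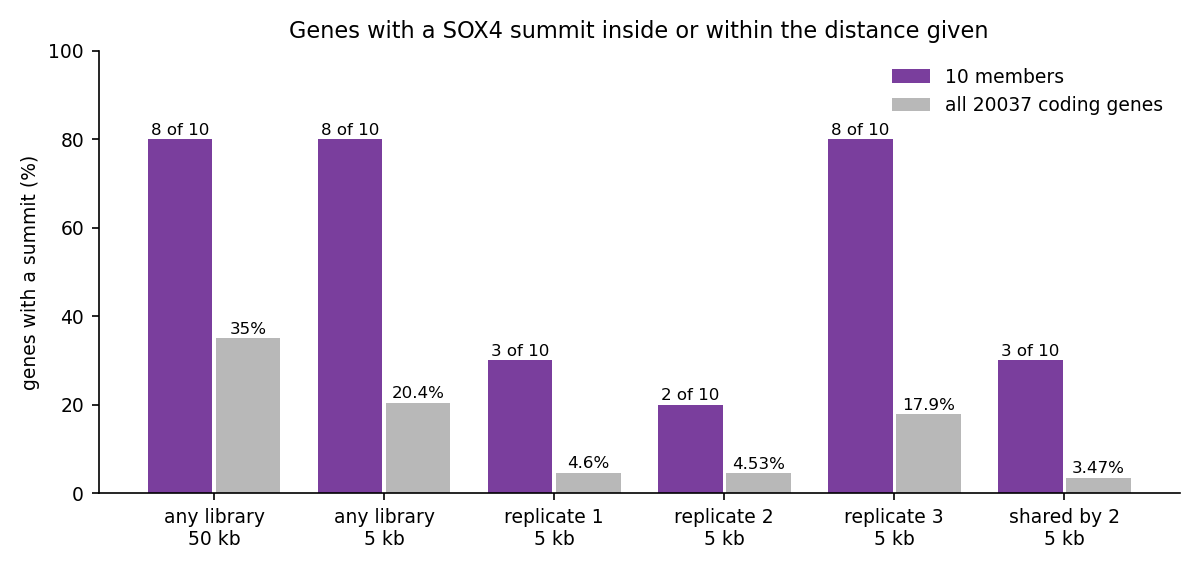
Percent of genes with a SOX4 summit inside or within the stated distance, for the 10 members (purple, with the count) and for all 20037 coding genes (grey); the last pair counts sites of at least 2 libraries. Replicate 3 reaches 8 of the 10 genes, and replicates 1 and 2 reach 3 and 2.

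No summit lay between 26.5 and 59.7 kb outside a member, and 3 lay between 50 and 100 kb. The farthest summits inside it and outside a gene were the replicate 2 summit 26.5 kb from VIM and the replicate 1 summit 9.20 kb from GRHL2. The nearest beyond it were replicate 3 summits 59.7 kb from SMAD3, 62.1 kb from SMAD4 and 74.2 kb from ZEB1.

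Strand was known for 8 of the members, and 6 of these had a summit within 1 kb of the outermost start of the gene: TGFBR2, SMAD2, SMAD4, SKIL, ZEB1 and VIM. Of the 15843 coding genes with a listed start, 14.9% had one of any library there. The 8 summits concerned lay 163 to 502 bp from the start. The TGFBR1 summit was also within 1 kb of a start if every listed start of the gene is counted. The gene table gives no exons or introns, so these were not told apart.

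The promoter windows at the outermost start of the 8 members were searched on both strands for 8 motifs. The SOX motif AACAAAG was in 0 of the 8 windows, against 4.16% of 15843 windows of coding genes, and the shorter AACAAT in 0, against 7.15%; both cannot match from the same base on the same strand. The SMAD motif CAGAC was in the windows of SKIL and SMAD3, against 44.3% of all windows. In SKIL it lay on the minus strand. Its plus-strand letters, gtctg, began 107 bases before the start, outside the capitals between the summits. The E-box CACCTG, which ZEB and SNAI factors bind, was in those of TGFBR1 and ZEB1, against 19.9%. The GC box GGGCGG was in 6 of 8 windows, against 58.3%. The TEAD motif GGAATG was in that of ZEB1, against 11.8%, and the AP-1 motif TGANTCA and the GRHL motif ACCGGT were in 0, against 5.70% and 1.97%. Both SKIL summits lay inside the SKIL window searched. Most member summits lay outside these windows, and for those the letters say nothing about the bases under them.

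Other genes of the pathway were taken from a list of 47. Of these, 7 lay within 5 kb of at least 1 summit (14.9%, against 20.4% of all coding genes) and 0 of a shared one (against 3.47%). The 7 were TGFBR3, a co-receptor gene, INHBA, which encodes an activin subunit, ACVR1, a type I receptor gene of the BMP branch, SMAD1, a transducer gene of that branch, ZFYVE9, which encodes an anchor protein that presents SMADs to the receptor, TGIF1, a co-repressor gene, and ITGAV, which encodes an integrin subunit of receptors that activate latent TGF-beta. TGFBR3, with a replicate 1 summit at 9.18, had the highest score of them. ACVR1 had the closest, a replicate 1 summit 78 bp from its end with a score of 4.40. The ligand genes TGFB1, TGFB2 and TGFB3 had none within 5 kb.

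Of 20 further epithelial genes, 3 had a summit within 5 kb (15.0%, against 20.4% of all coding genes) and 0 a shared one (against 3.47%). OCLN, which encodes the tight-junction protein occludin, had 2 summits of replicate 3, and DSP, the desmoplakin gene, and GRHL3, a paralog of GRHL2, had 1 each of the same library. Of 15 further mesenchymal and EMT genes, 4 had a summit within 5 kb (26.7%, against 20.4%) and 2 a shared one (13.3%, against 3.47%). SNAI2, which encodes an EMT transcription factor, and MMP2, a matrix protease gene, had 1 each of replicate 3. SNAI2 is on chromosome 8, where a summit lay within 5 kb of 50.5% of coding genes. The shared ones were those of CTNNB1, the beta-catenin gene, with replicate 1 at 6.76 and replicate 3 at 4.92, 80 and 111 bp from its end, and of EZH2, a histone methyltransferase gene, with replicate 2 at 7.31 and replicate 3 at 6.05, 408 and 447 bp from its end. CTNNB1 and EZH2 were listed with these sites known from earlier results and are among the 4 genes as well. Neither the count of 4 nor that of 2 with a shared site is therefore independent evidence. Without replicate 3 neither kept a shared site, without replicate 1 the count was 1, and without replicate 2 it was 1.

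The genes most like the 3 with a shared site were sought among coding genes elsewhere with a site of replicates 1 and 3 alone, 217 genes, by the summed difference of the standing in both lists. For SKIL these were P4HA1, with scores of 7.04 and 5.51 and a summed difference of 0.958 percentage points, and B3GALT9, at 3.23. For VIM they were PHIP, with scores of 3.36 and 4.83 and a difference of 3.17, and IFNAR1, at 6.05. For GRHL2 they were SFR1, with scores of 4.39 and 6.72 and a difference of 10.3, and STRADB, at 10.7. Likeness here rests on 2 libraries and on rank alone.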

How the data were processed

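SOX4 ChIP-seq was analysed in 3 libraries of BT549 cells, sequenced as 36-bp paired-end reads per the labels' protocols. The submitters' processing notes name BWA, SAMtools, MACS2 and hg19, with no versions. The coordinates match GRCh38 instead, since 41 of the contig names carry KI270 identifiers, which that build introduced. Each deposited score is on the −log10 scale, of p or of q, from calls the authors made library by library; which of the 2 it is, and whether a control was used, is not given in the sources used here.

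Gene spans were read from RefSeq annotation of GRCh38.p14, with all 10 members matched by symbol, and strands and promoter windows from its promoter table, which held 8 of them (not SKI and GRHL2). Positions are 1-based. Distances, ranks and sharing within 200 bp were computed with Python 3.11.15, numpy 2.4.6, pandas 2.3.3 and scipy 1.17.1. Summits in a chain with no gap over 200 bp, whatever their library, formed 1 site. The members and gene lists were chosen with earlier results of these data known, so counts are set beside all coding genes and no test was made. Named genes are the members, genes that hold or adjoin their summits, list genes with a shared site within 5 kb, and the 2 most alike genes for each member with one; list genes with an unshared summit, and the ligand genes TGFB1, TGFB2 and TGFB3, were named after their values were seen. On simulated summits, 200 of 200 planted genes and 100 of 100 planted shared sites were found. The summits were planted within the distances searched and with no others present. This checks the code only and says nothing about false calls in the real lists. Alternatives changed the windows, the sharing distance, the score threshold and the number of libraries, and left out each library in turn; those for the other gene lists were added after the data were seen.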

Additional observations from a re-analysis of the deposited data

How the results depend on the processing

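The count of 8 genes with a summit within 50 kb was 8 at 10 and 25 kb and 9 at 100 kb. With 1 library left out it was 4 to 8, lowest without replicate 3. Over all coding genes, the share was 33% without replicate 1, 33.4% without replicate 2 and 13.6% without replicate 3. The 15 summits became 14 at 10 and 25 kb, 18 at 100 kb, and 7 to 12 with 1 library left out. Dropping summits that scored below their list's median left 5 genes and 6 summits, and 0 genes had a shared site within 50 or 5 kb (0% of summits shared). The count of 3 genes with a shared site ranged from 0 to 3 at either distance with 1 library left out, being 0 without replicate 1 and without replicate 3; the share of shared summits ranged from 0 to 50% in the same settings. Requiring sharing within 100 bp left 1 gene at either distance, SKIL, and 13.3% of summits, since the other pairs are 128 and 166 bp apart, and 500 bp changed neither count. Requiring all 3 libraries gave 0 genes at either distance. By the looser measure of summits of all 3 libraries within 5 kb, whether at 1 site or not, 1 of the 10 members qualified, GRHL2. By that same measure the share of all coding genes was 1.5%. A shared site lay within 50 kb of 3.66% of coding genes without replicate 1, of 4.04% without replicate 2 and of 2.92% without replicate 3. Within 5 kb these shares were 1.85%, 1.99% and 1.32%, in the same order. The shares for the other windows, the score threshold and the sharing distances are not given here. For the other epithelial and mesenchymal genes, the count of 2 with a shared site became 0 to 1 with 1 library left out, and for the other TGF-beta genes it was 0 throughout. Leaving out a library removes its summits, which lowers such counts by construction. Depth could not be weighed, because no read numbers were used, so a gene without a summit is not shown to lack SOX4.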

Other observations

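Of the 8 member summits within 1 kb of an outermost gene start, 6 lay past the start (TGFBR2, SMAD2, SMAD4, ZEB1 and both of VIM) and 2 before it (both of SKIL). Over all coding genes with a listed start, 65.7% of the pairs of a gene and a summit within 1 kb had the summit past the start. The SKIL pair shares 1 site, as does the VIM pair, so the 8 are not independent.

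For some member summits the nearest coding gene end was that of another gene. The replicate 2 summit counted for VIM lay 21 bp from TRDMT1, and the TGFBR2 summit, which is inside TGFBR2, lay 83 bp from an end of LOC105377015. For the outer replicate 1 summit of GRHL2 it was an end of NCALD, at 3.86 kb.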
